A study of Mus musculus with 2 samples.

Results

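Mir23a and Mir27a on chromosome 8, with their paralogs Mir23b and Mir27b on chromosome 13, are 4 of the 2202 miRNA genes counted in adrenal gland tissue of newborn mice. The members were taken by gene symbol from the GENCODE M21 annotation of the deposited tables. The rule names symbols and no values, but was set with earlier results of these data known. Both libraries of the series belong to 1 group, namely adrenal glands of 4-day-old females of the hybrid strain B6CASTF1/J, with no treatment named. The strain is a first-generation cross of C57BL/6J and CAST/EiJ, and no label names a transgene or a deletion. The samples carry the numbers 1 and 2 as biological replicates and are described as different females, but share a donor identifier. Reads on the annotated strand of miRNA genes came to 4960537 in replicate 1 and 4506482 in replicate 2. All p-values below therefore compare 2 libraries and no conditions, and intervals cover counting error only, since PCR copies of a molecule cannot be told apart without molecular identifiers.

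The miR-23, miR-27 and miR-24 hairpins are transcribed together as a cluster, and vertebrates carry the cluster at more than 1 locus. Drosha and Dicer cut each hairpin into a short mature miRNA, whose seed (bases 2 to 8) leads the silencing complex to complementary sites in messenger RNAs. MiR-23 and miR-27 are well known from endothelial cells and blood vessel growth, and miR-27 also from lipid metabolism and the restraint of fat cell formation. In the adrenal gland, a richly vascular organ, cells of the cortex make steroids from cholesterol and cells of the medulla make catecholamines.

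The mature sequences are shown because a single base separates the 3p arms of the paralogs, and that base decides which gene a 3p read can be counted for, whereas the 5p arms differ at several positions. Hairpins of all 4 members were matched in the RefSeq miRNA table (GRCm38.p6), and the 3p arm of Mir23b is shown within its hairpin. Capitals mark the seed, and sequences run 5′ to 3′.
miR-23a-3p: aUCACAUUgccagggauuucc
miR-27a-3p: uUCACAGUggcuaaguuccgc
miR-27b-3p: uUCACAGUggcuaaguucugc
miR-23a-5p: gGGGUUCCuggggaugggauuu
miR-23b-5p: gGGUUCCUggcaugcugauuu
miR-27a-5p: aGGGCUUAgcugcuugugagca
miR-27b-5p: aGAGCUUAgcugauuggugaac
The 3p arms of Mir27a and Mir27b share the seed UCACAGU, which no other mature miRNA of the table has. The seed of miR-23a-3p differs from it by 1 base, and the first 8 bases of miR-23a-3p and miR-27a-3p differ by A1U and U7G (miR-23a-3p first, positions from the 5′ end). The 5p arms of the paralogs had 18 identical positions of 23 aligned in each family, and their seeds differ.

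The hairpins of the miR-23 pair are shown with the run that both genes share in capitals.
Mir23a: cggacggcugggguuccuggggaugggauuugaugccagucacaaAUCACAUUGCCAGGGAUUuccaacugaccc
Mir23b: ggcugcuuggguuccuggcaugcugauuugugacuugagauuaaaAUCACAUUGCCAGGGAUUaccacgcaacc
From the 5′ end of the 3p arm the paralogs are identical over 18 bases, for miR-23 as for miR-27. The first difference is base 19, written U19A from Mir23a to Mir23b and C19U from Mir27a to Mir27b, with positions counted from the first base of the 3p arm. Within the 21 bases of each arm it is the only one. Among the 1005 hairpins of the table, each run of 18 bases occurs in its 2 paralogs and in no other. A read that starts at the 5′ end of the 3p arm and stops before base 19 thus fits both loci equally well. Such reads belong to no gene in these tables, which keep reads with several positions in a separate row (25.9% of all reads in replicate 1 and 27.8% in replicate 2). How many of them come from miR-23 or miR-27 was not tested. Over whole hairpins the paralogs are less alike, with 59 identical positions of 80 aligned for miR-23 and 57 of 93 for miR-27.

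Both clusters have the same order on the plus strand. On chromosome 8 (mm10), Mir23a spans 84208518 to 84208592 and Mir27a 84208672 to 84208758, with 79 bases between them and Mir24-2 a further 56 bases on. No other annotated gene overlaps Mir23a or Mir27a, and the lincRNA gene Gm26532 has an exon over Mir24-2. On chromosome 13, Mir23b spans 63300484 to 63300557 and Mir27b 63300712 to 63300784, with 154 bases between them and Mir24-1 a further 423 bases on. Mir23b lies in an intron of the protein-coding gene 2010111I01Rik on the same strand, and Mir27b overlaps an annotated exon of one of its transcripts. Both also lie in an intron of Fancc on the opposite strand.

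**Figure D1:**
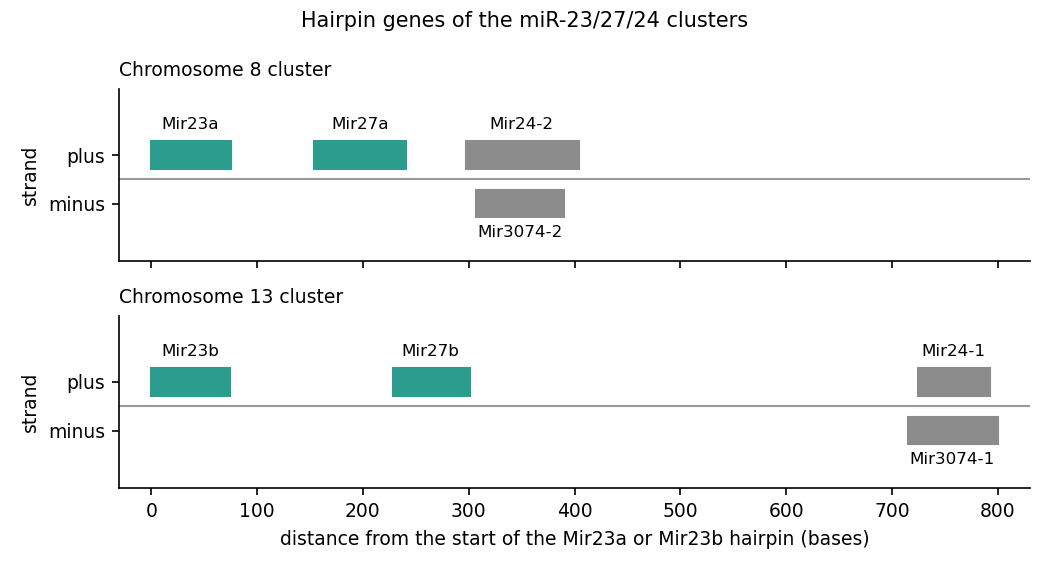
Hairpin genes of both clusters, drawn to scale as distance in bases from the start of the Mir23a or Mir23b hairpin (x axis) and by strand (y axis). Green boxes are the members and grey boxes the other annotated miRNA genes within 10 kb; the chromosome 8 cluster spans 404 bases from Mir23a to Mir24-2 and the chromosome 13 cluster 792 bases from Mir23b to Mir24-1.

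In reads that could be placed, both miR-23 genes were abundant and both miR-27 genes ranked lower. Mir23b had 162912 reads in replicate 1 and 198966 in replicate 2, or 32842 and 44151 CPM (reads scaled to a common total of miRNA reads), a mean of 38496 CPM ± 7997 (SD, n = 2). Mir23a had 113757 and 153976 reads, or 22932 and 34168 CPM, a mean of 28550.0 CPM ± 7945 (SD, n = 2). These levels placed Mir23b 6th and Mir23a 9th among all genes by mean CPM. Mir27b had 21243 and 13208 reads, or 4282 and 2931 CPM, a mean of 3607 CPM ± 956 (SD, n = 2). Mir27a was the lowest member, with 2327 and 1737 reads, or 469 and 385 CPM, a mean of 427 CPM ± 59.2 (SD, n = 2). Mir27b ranked 47th and Mir27a 131st. A read of these libraries covers a whole short RNA or a PCR copy of it, so levels were compared per read and not per gene length. Differences in capture between sequences were not tested.

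The order Mir23b, Mir23a, Mir27b, Mir27a was the same in both libraries. The levels of Mir23b and Mir23a overlapped across libraries, since Mir23b in replicate 1 lay below Mir23a in replicate 2. Those of Mir27b lay below both miR-23 genes and above Mir27a in every library. Together the members took 6.05% of miRNA reads in replicate 1 and 8.16% in replicate 2, with 95% Wilson intervals of 6.03 to 6.07 and of 8.14 to 8.19. The miR-23 genes held 92.1% and 95.9% of those reads. Reads on the strand opposite to a member were 2 for Mir27b in replicate 1 and 0 for every other member and library.

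**Figure D2:**
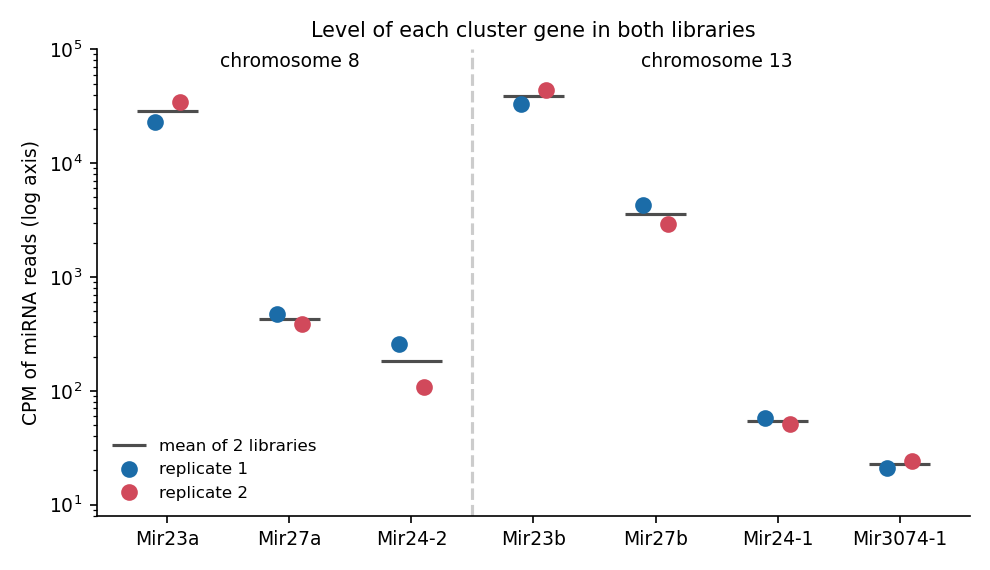
CPM of miRNA reads (y axis, log scale) for the members and the other detected genes of both clusters (x axis). Points are the libraries and bars their mean; the miR-23 genes lie between 22932 and 44151 CPM, Mir27b near 3607 and Mir27a near 427.

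The chromosome 13 cluster gave more reads than the chromosome 8 cluster in both libraries, and the fold between the loci was larger for miR-27 than for miR-23. Mir23b had 1.43 times the reads of Mir23a in replicate 1 (95% exact binomial interval 1.42 to 1.44) and 1.29 times in replicate 2 (1.28 to 1.30). Mir27b had 9.13 times the reads of Mir27a in replicate 1 (8.75 to 9.53) and 7.60 times in replicate 2 (7.23 to 7.999). On the log2 scale these ratios averaged 0.44 ± 0.10 for miR-23 and 3.06 ± 0.19 for miR-27 (SD, n = 2 for both). The difference between these averages exceeded the spread between the libraries. For the summed members, chromosome 13 over chromosome 8 gave 1.59 in replicate 1 and 1.36 in replicate 2. These ratios compare reads that can be placed at 1 locus, and they need no scaling between libraries.

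Within each cluster miR-23 exceeded miR-27 in both libraries. Mir23a had 48.9 times the reads of Mir27a in replicate 1 (95% exact binomial interval 46.9 to 51.0) and 88.6 times in replicate 2 (84.5 to 93.0). Mir23b had 7.67 times the reads of Mir27b in replicate 1 (7.56 to 7.78) and 15.1 times in replicate 2 (14.8 to 15.3). The excess of miR-23 over miR-27 was therefore greater at chromosome 8 than at chromosome 13 in both libraries.

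**Figure D3:**
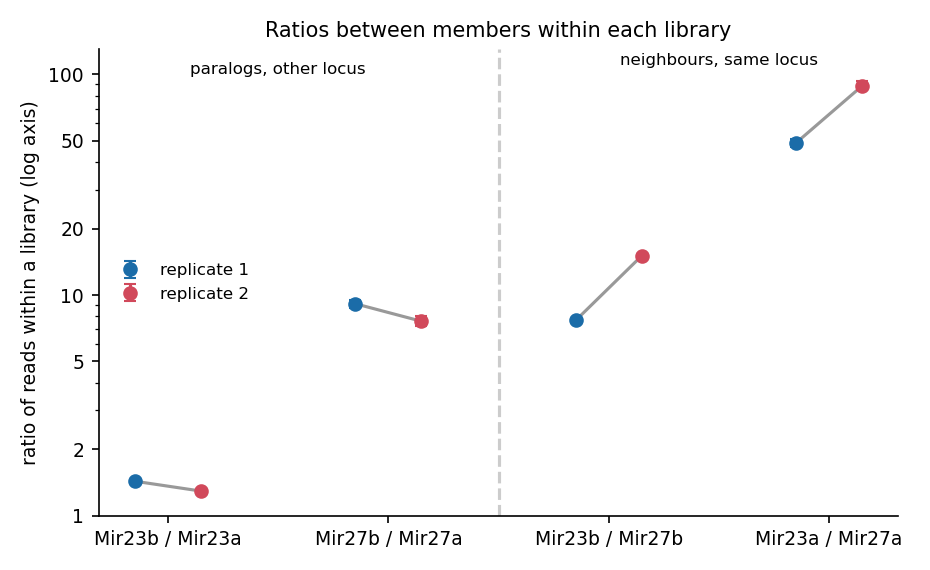
Ratio of the reads of 2 members within a library (y axis, log scale), for paralogs at different loci (left) and neighbours at 1 locus (right). Points are the libraries with exact 95% intervals for counting error, joined by a line. Paralog ratios fall from replicate 1 to replicate 2 (1.43 and 1.29 for miR-23, 9.13 and 7.60 for miR-27). Neighbour ratios rise by more (48.9 and 88.6 on chromosome 8, 7.67 and 15.1 on chromosome 13).

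Between the libraries the direction of the members went by family, while the balance between the loci changed less. Ratios of replicate 2 over replicate 1 were taken after TMM scaling, which corrects for differences in composition. Scaling by total miRNA reads instead moves every log2 ratio by -0.13, and CPM values are on that unscaled basis. Mir23a was 1.63-fold higher in replicate 2 (log2 ratio 0.71, 95% exact interval 0.70 to 0.72). Mir23b was 1.47-fold higher in replicate 2 (log2 ratio 0.56, interval 0.55 to 0.57). Mir27b was 1.33-fold higher in replicate 1 (log2 ratio -0.42, interval -0.45 to -0.38), and Mir27a was 1.11-fold higher there (log2 ratio -0.15, interval -0.24 to -0.06). Both miR-23 genes thus leaned to replicate 2 and both miR-27 genes to replicate 1, under each of the 5 scalings tried.

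All 4 members differed by more than counting error. The exact two-sided binomial test with Benjamini-Hochberg adjustment over 377 genes (at least 10 reads in both libraries) gave an adjusted p of 1.50e-03 for Mir27a and 2.36e-151 for Mir27b. For Mir23a and Mir23b it was too small for double precision and was returned as 0. Such calls were common, at 68.2% of the tested genes, with 35.5% higher in replicate 2 and 32.6% higher in replicate 1. Against the general spread of this pair of libraries no member stood out. In the exact test of edgeR, run with 1 shared dispersion estimated from the same pair, the adjusted p was 1 for each member, where 1.86% of genes passed. By absolute log2 ratio Mir23a ranked 110th of 377, Mir23b 156th, Mir27b 200th and Mir27a 303rd, and the median over all tested genes was 0.45.

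**Figure D4:**
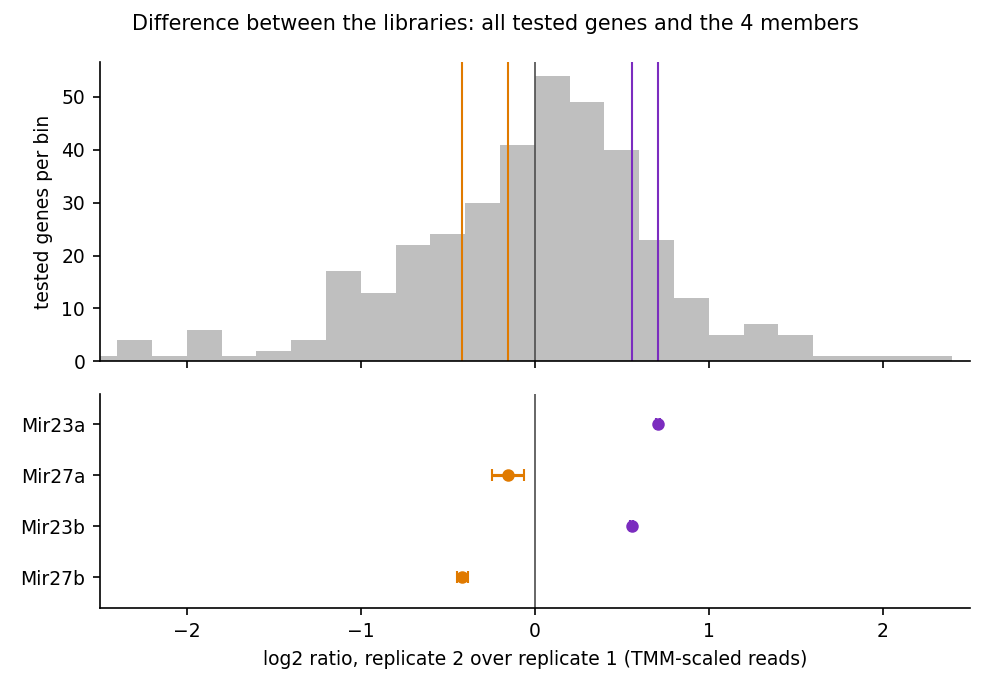
Log2 ratio of replicate 2 over replicate 1 in TMM-scaled reads (x axis) for the 377 tested genes as a histogram (top, genes per bin) and for the members with exact 95% intervals for counting error (bottom). Purple marks miR-23 and orange miR-27, at 0.71 and 0.56 against -0.15 and -0.42; 13 genes lie beyond the axis limits of 2.5 to either side.

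The shift between the families does not depend on library scaling, because it is a ratio within each library. The Mir23a to Mir27a ratio was 1.81-fold higher in replicate 2 than in replicate 1 (log2 change 0.86, 95% exact interval 0.77 to 0.95). At the other locus the Mir23b to Mir27b ratio was 1.96-fold higher in replicate 2 (log2 change 0.97, interval 0.94 to 1.01). At both loci the balance of miR-23 to miR-27 thus moved in the same direction, by slightly more on chromosome 13. The balance between the loci changed less. Mir23b over Mir23a changed by -0.15 on the log2 scale (interval -0.16 to -0.13) and Mir27b over Mir27a by -0.26 (interval -0.36 to -0.17), both towards chromosome 8 in replicate 2. These intervals lie narrowly apart, whereas those of the miR-23 to miR-27 change at each locus overlap (0.77 to 0.95 and 0.94 to 1.01). No interval was computed for the difference in change between the loci, which was not tested. With 1 library per replicate, no test of these changes against the spread between animals exists.

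Pairs of other miRNA genes give the scale for these differences. Among tested genes on 1 strand within 10 kb of each other there were 434 neighbour pairs apart from those of 2 members, 295 of them on chromosome 12, and their log2 ratios lay a median of 0.58 apart. With at least 1000 mean reads for both genes and without chromosome 12, 34 pairs were left, with a median of 0.55 and a range of 0.08 to 2.37. Of these 34, 9 lay farther apart than Mir23a and Mir27a (0.86), and 9 farther than Mir23b and Mir27b (0.97). Genes that share a seed at different loci made 92 pairs at that depth besides the members' own, with a median of 0.29. Among those, 23 lay closer together than Mir23a and Mir23b (0.15), and 43 closer than Mir27a and Mir27b (0.26). Most pairs in both counts join genes of the let-7 family, including Mir98, so this scale leans on 1 family. The member pairs therefore sit within the range of both kinds of pair. Opposite directions, as in both member pairs of neighbours, were found in 41.2% of the 34 neighbour pairs. The seed comparison covers the 345 of 377 tested genes with at least 1 mature sequence in the table. A gene with an arm missing there, as for Mir23b, forms no pair by the seed of that arm. The 92 pairs and their median may therefore be incomplete. Mir23b itself was paired with Mir23a by the shared run in its hairpin. Pairs share genes and both libraries, so they are not independent.

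**Figure D5:**
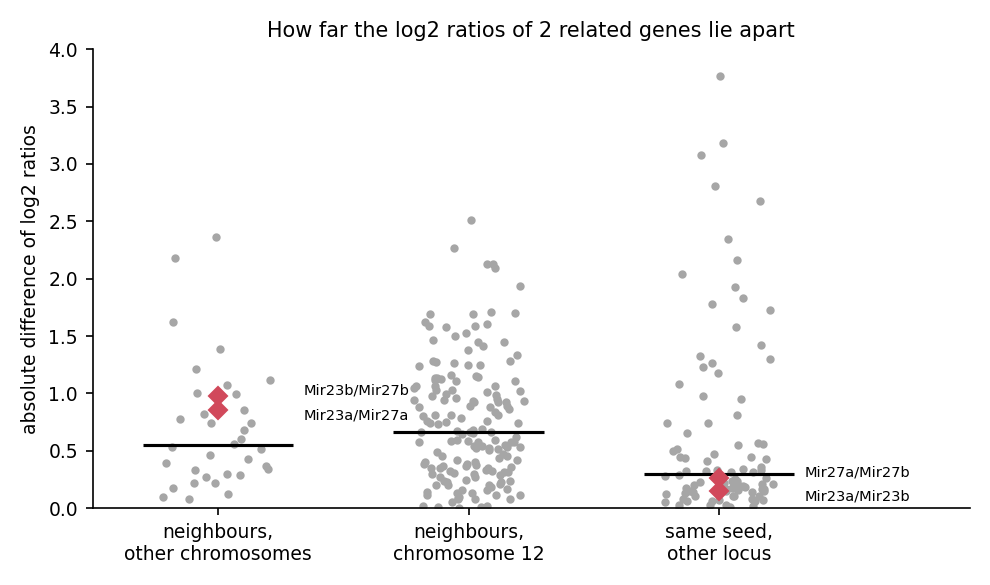
Absolute difference between the log2 ratios (replicate 2 over replicate 1) of 2 related genes (y axis) for neighbours on other chromosomes, neighbours on chromosome 12 and genes with a shared seed at different loci (x axis), each gene with at least 1000 mean reads. Grey points are pairs, black lines their medians and red diamonds the member pairs, which are not in the medians; neighbours in the member clusters lie 0.86 and 0.97 apart, and paralogs 0.15 and 0.26.

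The remaining genes of the clusters had few reads that could be placed. MiR-24, the third miRNA of each cluster, has a 3p arm that is identical at both loci.
miR-24-3p: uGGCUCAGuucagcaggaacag
The identity reaches at least 25 bases from the start of that arm, past its own 22, and the annotated Mir24-1 hairpin ends there. Reads of miR-24-3p therefore cannot be placed and are missing from both genes. Mir24-2 on chromosome 8 had 1277 reads in replicate 1 and 489 in replicate 2, or 257 and 109 CPM. It was 2.17-fold higher in replicate 1 (log2 ratio -1.12, exact interval -1.27 to -0.96, adjusted p 8.96e-52 by the exact binomial test). Mir24-1 on chromosome 13 had 285 and 232 reads, with a log2 ratio of -0.03 (interval -0.28 to 0.23) that was not called. These values describe the uniquely placed reads alone and say nothing of the level of miR-24. Mir3074-1 and Mir3074-2 lie opposite Mir24-1 and Mir24-2 on the minus strand. Mir3074-1 had 104 and 110 reads with no call (log2 ratio 0.35, interval -0.05 to 0.75). Mir3074-2 had 1 and 0 reads, where a count of 0 allows a share of up to 6.66e-05% in replicate 2 (3 reads of the total). In the column for either strand all of these overlapping genes stand at 0, whereas the members, which overlap no miRNA gene, keep their reads.

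Genes with levels most like the members were found by distance over log2(CPM + 1) in the 2 libraries. Closest to Mir23a were Mir10b (distance 0.12), Mir143 (0.18) and Mir26b (0.26). Closest to Mir23b were Mir375 (0.18), Mir322 (0.29) and Mir143 (0.48). For Mir27b they were Mirlet7f-2 (0.29), Mir17 (0.37) and Mir409 (0.42), and for Mir27a they were Mir667 (0.22), Mir668 (0.24) and Mir1193 (0.28). No member was among the 3 closest of another, and with 2 libraries this measure mostly reflects the level.

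Markers of several cell types differed between the libraries by more than counting error, beside the members. Calls are those of the exact binomial test, which covers counting error alone and picked out 68.2% of all 377 tested genes. A called marker is thus no evidence by itself of a difference in its cell type. Endothelial miRNAs, of which 4 of 5 were tested, took 17.1% of miRNA reads in replicate 1 and 7.51% in replicate 2, led by Mir126a, with 2 genes called higher in each replicate. Mesenchymal and smooth muscle miRNAs (5 of 7 tested) took 3.05% and 3.77%, with 3 genes higher in replicate 1 and 2 in replicate 2. Most of these reads were of Mir143 (25848 and 35132 CPM), and the median log2 ratio of the tested genes was -0.51. Epithelial miRNAs (7 of 7) took 0.471% and 0.116%, with 6 genes higher in replicate 1 and 1 in replicate 2. Erythroid miRNAs (3 of 3) took 0.106% and 0.0287%, with 2 and 1. Striated muscle miRNAs (3 of 10) took 0.125% and 0.869%, with all 3 tested genes higher in replicate 2. Nearly all of these reads were of Mir206 (1239 and 8627 CPM). Leukocyte miRNAs (5 of 5) took 0.197% and 0.224%, with 1 gene higher in replicate 1 and 3 in replicate 2. The liver miRNA Mir122 took 0.145% and 0.264% and was called higher in replicate 2. The neuroendocrine miRNAs Mir375, Mir7b and Mir137, markers of the medulla, took 4.05% and 4.59%, with 2 genes higher in replicate 2 and 1 not called. No listed marker was at 0 in both libraries, and no marker of steroid-producing cortex cells was among the lists. The part of these differences in the levels of the members was not tested. In bulk tissue, fewer cells of a type and less RNA per cell cannot be told apart.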

How the data were processed

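The authors deposited raw read counts per miRNA gene for 2 adrenal libraries, without normalizing them. Reads were placed on mm10 and counted over GENCODE M21, per the file headers. Which aligner and counter were run is not given in the sources used here. Of 3 count columns, read from the values as either, annotated and opposite strand, the annotated strand was used. The 4 leading rows that name no gene stayed out of library sizes: unmapped reads (25.8% and 26.1% of all reads in replicates 1 and 2), reads with several positions (25.9% and 27.8%), reads in no miRNA gene (5.96% and 6.24%) and an ambiguous row, which was 0.

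CPM used all 4960537 and 4506482 miRNA reads. Ratios between libraries used TMM factors from edgeR 4.0.16 (1.05 and 0.956) and an exact binomial test per gene in SciPy 1.17.1, with calls at an adjusted p under 0.05. The binomial test was checked on simulated data with counting error alone. That check does not cover the wider spread between these libraries. Ratios within a library carry exact intervals. Changes of such ratios carry the exact conditional interval of the odds ratio from R 4.3.3. Hairpins were aligned with Biopython 1.88. Alternatives were total reads with and without Mir126a, DESeq2 1.42.0 size factors, 2 other read minimums, either strand and edgeR's exact test. TMM over tested genes was added after seeing the data. Named genes were the members, miRNA genes within 10 kb, genes with a shared seed, the 3 genes closest in level, and marker lists by their leading gene. The members and lists were chosen with earlier results of these data known, and pairs with a shared seed were compared after the members' values were seen. Uniqueness of sequences was searched in the RefSeq hairpins and GENCODE transcripts. A genome sequence was not used here. A difference of the CAST/EiJ allele from the reference could lower a count in both libraries.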

Additional observations from a re-analysis of the deposited data

How the results depend on the processing

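The direction of all 4 members was kept under every alternative, and so was each call except under edgeR's exact test. Log2 ratios of replicate 2 over replicate 1 ran from 0.41 to 0.71 for Mir23a, 0.26 to 0.56 for Mir23b, -0.45 to -0.15 for Mir27a and -0.71 to -0.42 for Mir27b, with total reads without Mir126a giving the lowest value of each. In edgeR's exact test the ratios were 0.71, 0.56, -0.15 and -0.42 in that order with an adjusted p of 1 for each, and 7 genes passed in place of 257 (24 at an unadjusted p under 0.05). The other alternatives gave 218 to 266 calls. Total reads without Mir126a turned the split of calls from 134 higher in replicate 2 and 123 in replicate 1 to 77 and 189. As a share of all reads of the table in place of miRNA reads, mean levels were 1.17% for Mir23a, 1.58% for Mir23b, 0.149% for Mir27b and 0.0176% for Mir27a, since that total is larger. As a share of reads in the column for either strand Mir27a had 0.0512%, where that column's total is smaller. Leaving out a library leaves the value of the other, so these settings repeat the values given per library. No paired analysis was possible because the series holds 1 group. Depth limits Mir27a most among the members.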
